A study of Schizosaccharomyces pombe with 25 samples.

Results

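Divergent gaps are the stretches of DNA between adjacent protein-coding genes that are transcribed away from each other, so that a single stretch lies upstream of both transcripts. They were taken from the deposited gene annotation of Schizosaccharomyces pombe, in which the 5123 protein-coding genes of chromosomes I, IIc and III were sorted by the start of the gene. A gap was kept where the left gene lay on the reverse strand, the right gene on the forward strand, and 1 to 3000 bases separated their annotated ends. This gave 1056 divergent gaps among 5120 adjacent pairs of coding genes. The gaps lay upstream of 2112 genes, 41.2% of all coding genes. Tandem gaps, between genes read in the same direction and chosen with the same limits, numbered 1954 and lie upstream of only the second gene.

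The series comprises 25 chromatin immunoprecipitation libraries in 13 groups, which asked how the histone variant H2A.Z and the remodeller that deposits it relate to assembly of the centromeric histone CENP-A. CENP-A (Cnp1) was precipitated in 4 libraries from cc2∆:cc1 strains, with 1 library each for pht1∆, swr1∆, msc1∆ and wild type, and in 5 libraries from strains without that label, of the same deletions (1 library each) and wild type (2). All were grown overnight in YES, a rich medium. The myc-tagged H2A.Z (Pht1) was precipitated in 4 libraries each of swr1∆, msc1∆ and wild-type cells, and myc-tagged Swr1 and flag-tagged Msc1 in 2 wild-type libraries each. The files used here hold the reference annotation and no value of any library, so no depth, replicate spread or binding level is given. IIc is the authors' modified chromosome II, and coordinates on it are those of the deposited annotation. The counts describe every gap of 1 annotation. The 95% intervals (Wilson for shares, order statistics for medians) treat genes or gaps as independent draws and cover counting error only, and no test was run between orientations.

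Gene starts in yeasts are usually preceded by a nucleosome-depleted stretch where the transcription machinery assembles, and H2A.Z is known to occupy nucleosomes beside it. Where genes diverge, the same stretch can hold the start sites and regulatory elements of both. Core histone genes are a textbook case, since H3 and H4, or H2A and H2B, are needed in equal amounts. In fission yeast these pairs share a short promoter with repeats of AACCCT, an element known to be bound by the GATA factor Ams2. Ribosomal protein genes of this yeast often carry HomolD, an element that takes the place of a TATA box.

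The following sites are shown because they lie between the H3 and H4 genes of 3 core histone pairs. They were read from the RefSeq sequence of assembly ASM294v3, between the gene ends of the RefSeq annotation, and not from the deposited build. Capitals mark a pair of adjacent AACCCT copies, and each run is given 5′ to 3′ on the strand that carries these letters.
hhf1/hht1, chrI:4699643-4699672, forward strand: ctgcatcaaAACCCTAACCCTgcttttgat
hhf2/hht2, chrII:1365051-1365080, reverse strand: gtcaatcacAACCCTAACCCTgatttaaga
hht3/hhf3, chrII:3529618-3529647, forward strand: tttgatcacAACCCTAACCCTttaattaaa

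In these 3 pairs the capitals stood wholly inside the gap. The repeat began 52 bases from hhf1 and ended 68 bases from hht1. It lay 75 bases from hhf2 and 47 from hht2, and 61 bases from hht3 and 128 from hhf3. The repeat read along the right gene in the hhf1/hht1 and hht3/hhf3 gaps and along the left gene in the hhf2/hht2 gap. These distances come from RefSeq transcript ends, which differ from the deposited ones.

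In the deposited annotation, 2 of the 4 histone pairs were divergent gaps. The H4 gene hhf1 and the H3 gene hht1 were 146 bases apart on chromosome I (4699545 to 4699690), with 5′ UTRs of 148 and 138 bases. The H2A gene hta1 and the H2B gene htb1 were 172 bases apart on chromosome III (1412215 to 1412386), with 5′ UTRs of 292 and 97 bases. The transcripts of hhf2 and hht2 overlapped by 3 bases, and those of hht3 and hhf3 by 1 base, so both pairs fell just outside the limit. In the RefSeq annotation the same pairs were 134 and 201 bases apart. Their deposited 5′ UTRs measured 220 and 117 bases for hhf2 and hht2, against 161 and 39 bases in RefSeq, and 128 and 110 bases for hht3 and hhf3, against 36 and 0 bases. The other gaps were close in length, at 146 bases in the deposited and 132 in the RefSeq annotation for hhf1/hht1, and 172 and 177 bases for hta1/htb1. Start codons of the 4 pairs were 237 to 561 bases apart in RefSeq.

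The paired AACCCT repeat was searched over all coding genes, a search added after the histone sites had been seen. It occurred within 250 bases before to 50 bases after the RefSeq transcript start of 20 of 5111 genes (0.391%), counting both strands. The 5111 are the RefSeq coding genes with a full window, not the 5123 of the deposited annotation. Of the 20 genes, 9 were histone genes, among them both genes of each of the 4 histone pairs. The windows of such a pair overlap, so a single repeat can be counted for both genes. The same holds at other short divergent gaps, so the counts are of starts and not of separate repeats. The other genes included the heat shock protein genes hsp90, ssa1 and ssa2, and tbp1, which encodes the TATA-binding protein. At divergent gaps 8 of 2103 starts had the repeat (0.380%), against 6 of 1948 starts downstream of tandem gaps (0.308%). A single AACCCT was common, at 10.4% of starts at divergent gaps, against 8.21% at tandem gaps and 9.70% of all 5111 genes.

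Both genes encoded cytosolic ribosomal proteins at 4 divergent gaps. Chromosome I had rps1602 and rpl13, 11 bases apart, and IIc had rpl701 and rps1402, 16 bases apart. Chromosome III had rpl35 and rpl902, 49 bases apart, and rps2 and rps20, 485 bases apart. Their 5′ UTRs ranged from 30 to 96 bases, all below the median of 163 bases over the genes at divergent gaps. In RefSeq the first gaps were wider, at 102, 67 and 203 bases, while rps2 and rps20 were 490 bases apart. The HomolD letters CAGTCACA, in capitals below, were found in 3 of these 4 RefSeq gaps.
rpl701/rps1402, chrII:1792293-1792322, reverse strand: aactaaaggaaCAGTCACAaatttgtgtcg
rpl35/rpl902, chrIII:89621-89650, forward strand: ccaaagaaaagCAGTCACActagtgcaagt
rps2/rps20, chrIII:2096064-2096093, reverse strand: atgagcccaaaCAGTCACActcattataga

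The HomolD match of rpl701/rps1402 stood 8 bases from rpl701 and 51 from rps1402. That of rpl35/rpl902 stood 55 bases from rpl35 and 140 from rpl902. In the longer gap of rps2/rps20 the match was 38 bases from rps2 and 444 bases from rps20.

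**Figure D1:**
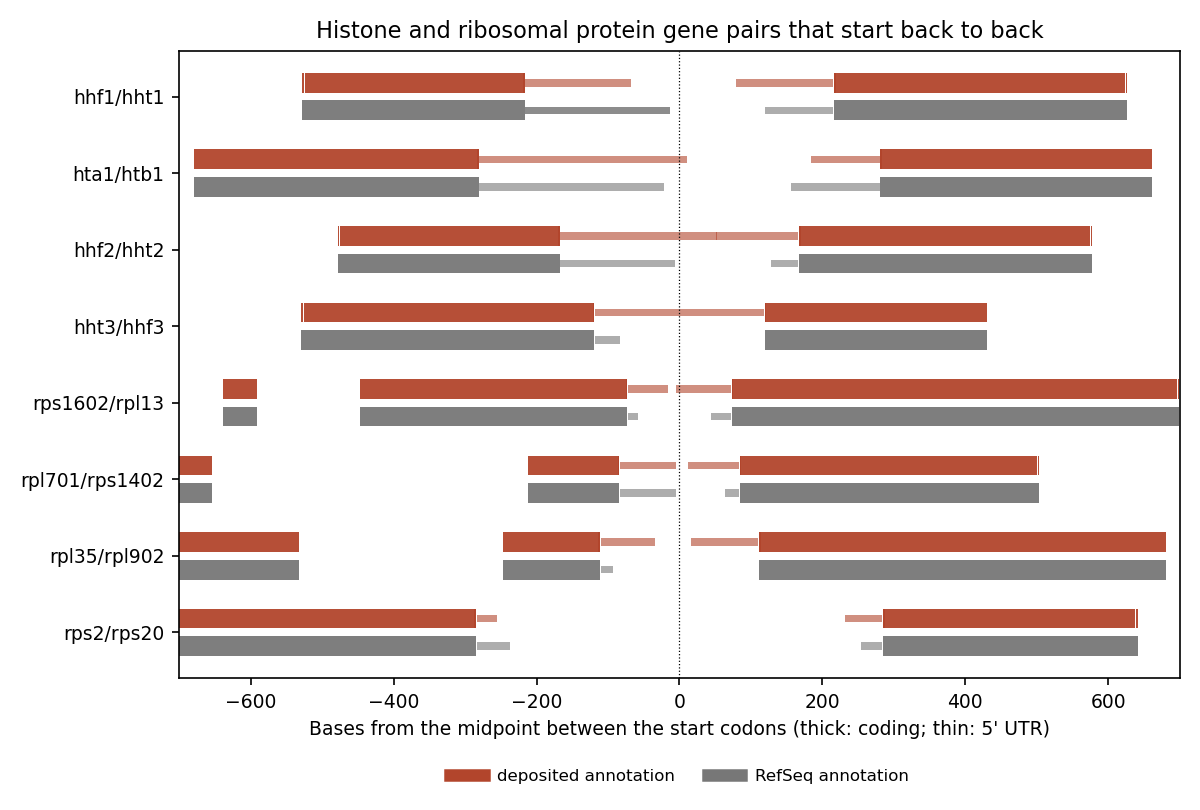
Map of the 4 core histone pairs and the 4 ribosomal protein pairs, with position in bases from the midpoint between the start codons on the horizontal axis. Thick bars are coding exons and thin bars 5′ UTRs, in the deposited annotation (red, upper) and in RefSeq (grey, lower). The thin bars of hhf2/hht2 and hht3/hhf3 meet in the deposited annotation. In RefSeq those of hhf2/hht2 are apart, and hhf3 has none.

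Ribosomal protein genes lay at 58 divergent gaps, of 8 to 2110 bases with a median of 389 bases. They made up 62 of the 138 members found (44.9%), against 41.2% of all coding genes at divergent gaps. Their 5′ UTRs were short, with a median of 73 bases. The shortest gap, of 8 bases, lay between rmt1 and rpl31. HomolD was found at 43 of the 62 RefSeq starts (69.4%), and at 35 of 55 starts of ribosomal protein genes downstream of tandem gaps (63.6%). Over all genes it was found at 3.23% of starts at divergent gaps (95% interval 2.56% to 4.08%), against 2.57% at tandem gaps (1.95% to 3.37%). Its share among the 5111 RefSeq coding genes was 2.68%. These shares count starts and not separate sites, and starts across a short divergent gap can share a site. In the 54 gaps with a single ribosomal protein gene, 38 had a HomolD match near the start of that gene. In 11 of them the window of the partner had a match too, and 0 partners had one where the ribosomal protein gene had none. Across a short gap both windows cover the same bases, so a single site can be counted for both genes. Whether the 11 partner matches were separate sites was not examined. The matches lay at a median of 50.5 bases before the ribosomal protein gene (quartiles 56 and 47 bases before it), and 28 of 38 read along it.

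The gaps of the factors named in the labels differed widely. cnp1, the gene for CENP-A, was 110 bases from rpr2 on IIc (3537221 to 3537330) and had a 5′ UTR of 420 bases. Another coding gene, new19, also reached into this gap. RefSeq places these transcripts 437 bases apart and gives cnp1 a 5′ UTR of 97 bases. pht1, the gene for H2A.Z, was 1702 bases from shy1, with a threonine tRNA gene, SPBTRNATHR.06, inside the gap and a 5′ UTR of 407 bases. msc1, whose product belongs to the Swr1 complex, was 1797 bases from SPAC343.21, whose 5′ UTR was 1643 bases, and the gap held the non-coding RNA gene SPNCRNA.753. swr1 was not at a divergent gap: it had a tandem gap of 357 bases before it and a 5′ UTR of 56 bases.

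Of 13 Swr1 complex genes found by name, 3 were at divergent gaps (23.1%). These were msc1, yaf9, 654 bases from SPAC17G8.06c, and swc2, 846 bases from SPBP35G2.14. swc5 had a divergent neighbour, mhf2, but their transcript starts crossed by 1087 bases, so no gap lay between them. Of 27 genes for kinetochore proteins and CENP-A assembly factors, 10 were at divergent gaps (37.0%), of 35 to 2038 bases with a median of 1426 bases. The short gaps belonged to cnp20, 35 bases from SPBC800.12c, to cnp1, to fta3, 174 bases from vac7, and to sim4, 354 bases from the ribosomal protein gene rpl1001. The longer ones belonged to cnp3 (1419 bases to abp2), ams2 (1433 bases to nup186), mis13 (1477 bases to ade7), sim3 (1723 bases to gyp1), spc7 (2015 bases to pma2) and mal2 (2038 bases to isp7). The gaps of cnp3 and sim3 each held a non-coding RNA gene, SPNCRNA.113 and SPNCRNA.327. For 7 more divergent pairs of this list the transcript starts crossed, by 3 bases for mis6 and for scm3, the chaperone of CENP-A. The largest crossing was 4151 bases, for spc25, and it can exceed the bases that both transcripts share. For spc25, mis12 and nnf1 the start codons were in reversed order too, at distances of -3663, -1472 and -1400 bases.

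Other lists gave the following counts. Proteasome genes were at divergent gaps for 15 of 29 members, with a median gap of 863 bases and a median 5′ UTR of 75 bases; rpn10, a ubiquitin receptor of the proteasome, was 60 bases from rpm2, and rpn8 159 bases from SPCC1682.09c. Chaperone genes were at divergent gaps for 10 of 19 members, with wos2 113 bases from vps24 and cct4, a subunit of the chaperonin that folds actin and tubulin, 122 bases from tim11. Genes of DNA replication were at such gaps for 10 of 24 members, among them mcm2, of the replicative helicase, 132 bases from mlo2, cdc18, a licensing factor, 146 bases from mrpl24, and pol1, of the DNA polymerase alpha primase complex, 147 bases from the ribosomal protein gene rpl702. Heterochromatin genes were at such gaps for 6 of 17 members, of which tas3, of the RNA-induced silencing complex, had the shortest gap, at 469 bases to apc15. RNA polymerase II and general factor genes were there for 5 of 17 members, with rpb9 162 bases from SPAPYUG7.05. Of 14 glycolysis genes 1 was at a divergent gap, the aldolase gene fba1, 275 bases from mug124. Before the gap limits, divergent pairs numbered 9 for heterochromatin, 10 for RNA polymerase II and 6 for glycolysis genes. Of these, 2, 5 and 3 had no gap, in the same order. Over all coding genes the share at divergent gaps was 41.2%, and no list was tested against it.

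Of 31 genes commonly used as markers or controls in this yeast, 12 were at divergent gaps, of 285 to 2782 bases. The adenine marker ade6 was 285 bases from the spindle checkpoint gene bub1, the tubulin gene atb2 376 bases from brx1, and lys1 550 bases from rpl1002, in a gap that prm1 also reached into. The uracil-regulated genes urg2 and urg3 diverged over 365 bases. The longest gaps of this list were singled out after their values were seen. The meiotic regulator mei2 was 2396 bases from omt2, with SPNCRNA.993 and omt3 between them, and the glucose-repressed gene fbp1 was 2782 bases from SPBC660.05, with SPNCRNA.1326 between them.

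Divergent gaps were longer than tandem gaps on each chromosome. The median was 666.5 bases (95% interval 601 to 712, n = 1056) for divergent gaps, against 306.5 bases (287 to 328, n = 1954) for tandem gaps, a difference of 360 bases (interval 291 to 410) and a ratio of 2.17. On chromosome I the medians were 627.5 bases for divergent and 303 bases for tandem gaps. On IIc they were 658.5 and 301 bases, and on chromosome III 812.5 and 327 bases, in the same order. The quartiles were 237 and 1140 bases for divergent gaps, against 154 and 633 bases for tandem gaps. The orientations overlapped over the whole permitted range, so that length alone does not tell them apart.

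The lengths of divergent gaps had a short group and a broad remainder. There were 130 gaps of 1 to 100 bases and 119 of 101 to 200 bases, then 51 of 201 to 300, 62 of 301 to 400 and 72 of 401 to 500 bases. Tandem gaps had no such dip: 268 measured 1 to 100 bases, 407 measured 101 to 200, 291 measured 201 to 300 and 199 measured 301 to 400 bases. Gaps over 500 bases made up 58.9% of the divergent gaps (622) and 31.8% of the tandem gaps (621). In the RefSeq annotation the lowest of the first 5 bins moved, with 105 divergent gaps of 1 to 100 bases, 131 of 101 to 200, 77 of 201 to 300, 58 of 301 to 400 and 57 of 401 to 500 bases.

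**Figure D2:**
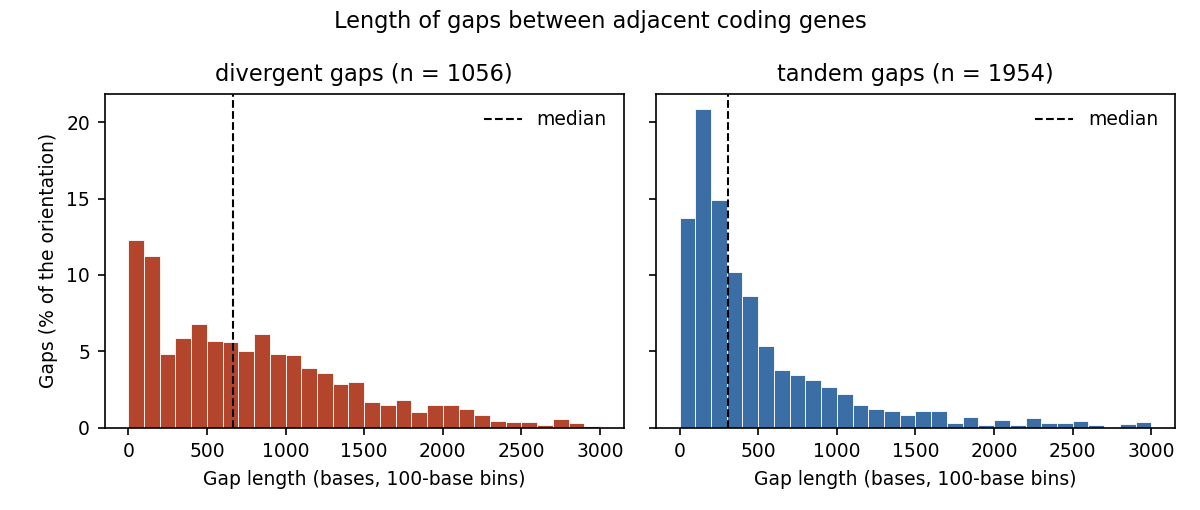
Length of divergent gaps (left) and tandem gaps (right) in 100-base bins, as a percentage of all gaps of that orientation. The dashed lines are the medians of 666.5 and 306.5 bases. The divergent gaps have 2 high bins up to 200 bases, a low bin of 51 gaps at 201 to 300 bases and a broad remainder.

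The shortest divergent gaps measured 1 base, between mdl1 and cdc37, which encodes a kinase co-chaperone, and between SPBC13E7.08c and vrp1, where SPBC13E7.07 also lay. Gaps of 2, 3 and 4 bases followed for mtg1/mis3, SPCC285.10c/dsc5 and rtp1/lsm5. The longest, of 2906 bases, lay between SPBC18H10.18c and the autophagy gene atg14. Gaps of 2882, 2862, 2802 and 2798 bases followed, for SPBC24C6.09c/new16, SPBC1E8.03c/Tf2-10, SPBC1348.06c/SPBC1348.07 and SPAC186.08c/SPAC186.09. Just outside the limit were gaps of 3008 bases (SPBPB2B2.14c/SPBPB2B2.15), 3033 bases (SPAC977.05c/SPAC977.06) and 3039 bases (SPBC19C7.04c/SPBC19C7.05).

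Of the 1401 divergent pairs the limits left out 345. In 304 pairs (21.7%) no base separated the transcripts, and in 41 the gap exceeded 3000 bases. Of the 2320 tandem pairs, 322 (13.9%) had no gap and 44 a gap over 3000 bases. Chromosome I had 25.3% of its divergent pairs without a gap, IIc 16.8% and chromosome III 22.6%. In 94 of the 304 pairs the distance between the start codons was below 1 base too. A negative distance means that the start codons were in reversed order, and they could then lie far apart. From their start codons the genes of such a pair are read toward each other. They count as divergent by strand and sort order only, and stay in the counts of divergent pairs. Over the 304 pairs the lower quartile of this distance was -1409 bases and the lowest value -6055 bases. Another coding gene also reached into 48 divergent gaps (4.55%) and 97 tandem gaps (4.96%). Leaving these 48 gaps out, the divergent median was 664 bases.

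Start codons were further apart than transcripts by construction, since both 5′ UTRs add to the gap. The median distance between the start codons of a divergent gap was 1099 bases (interval 1065 to 1171), with quartiles of 709 and 1696 bases and a range of 79 to 6665 bases. The longest distance belonged to pma1, the plasma membrane proton pump gene, and SPAC1071.13. Over every divergent pair, whatever its gap and with negative distances included, the median was 985 bases. For tandem gaps, the distance between the coding end of one gene and the coding start of the next had a median of 816.5 bases, but this contains a 3′ UTR and only one 5′ UTR.

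Genes at divergent gaps had 5′ UTRs with a median of 163 bases (interval 153 to 175, n = 2112), against 124 bases (115 to 133, n = 1954) for genes downstream of a tandem gap. The difference of 39 bases had an interval of 25.5 to 54 bases. All 5123 coding genes together had a median of 155 bases (149 to 162), nearer to the divergent than to the tandem value. Chromosome I had medians of 163 bases at divergent and 125 bases at tandem gaps. For IIc these were 156.5 bases at divergent and 114 bases at tandem gaps, and for chromosome III 172.5 and 148 bases in the same order. Within the length classes the divergent median was the higher one in 7 of 7, and the interval of the difference lay above 0 in 3 of them. The difference was 85 bases (interval 12.2 to 129.9) for gaps of 201 to 300 bases, 65 bases (34.1 to 93.2) for 301 to 500 bases and 51.5 bases (3.48 to 80.9) for 1001 to 2000 bases. Genes with no annotated 5′ UTR made up 7.29% at divergent gaps, 10.8% at tandem gaps and 8.37% of all coding genes. Leaving out pairs in which either gene had none gave medians of 181.5 and 146 bases.

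**Figure D3:**
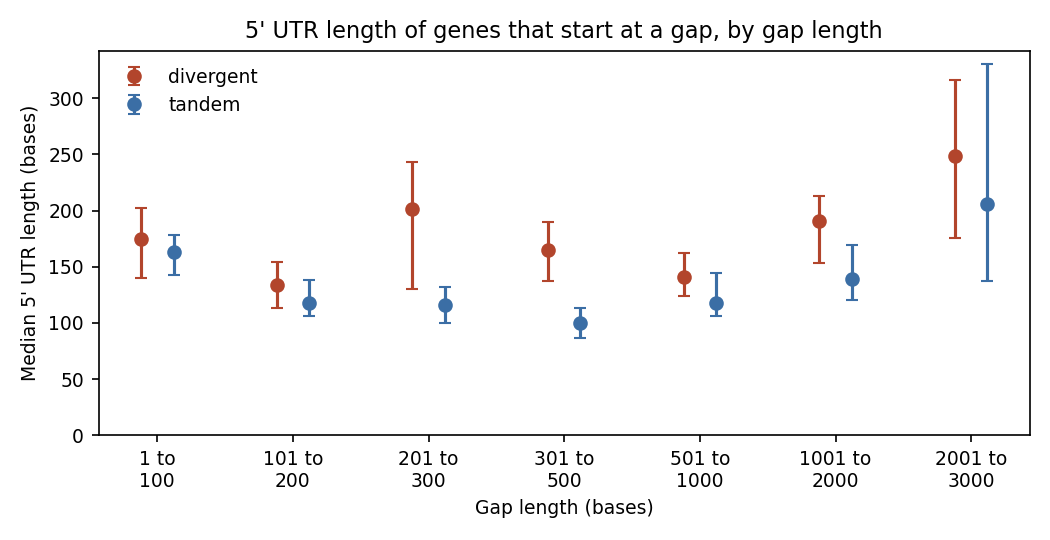
Median 5′ UTR length in bases (points) of the genes that start at divergent and tandem gaps, by gap length, with 95% order-statistic intervals (bars). The divergent point is above the tandem point in each class, and the bars overlap in all classes but that of 301 to 500 bases.

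The 5′ UTR lengths of partners were compared within pairs. Spearman's rho was 0.09 over the 1056 gaps, and 0.04 between the gap length and the summed 5′ UTRs of both genes, given as descriptions since neighbouring genes share the annotation's transcript data. The shorter 5′ UTR of a pair had a median of 91.5 bases and the longer one a median of 269.5 bases. Both were annotated at 912 gaps, one was missing at 134 and both at 10. A 5′ UTR of 1000 bases or more occurred in 67 genes at divergent gaps (3.17%), against 44 at tandem gaps (2.25%). It occurred in 82 of 608 genes of divergent pairs without a gap (13.5%). Among all 5123 coding genes it occurred in 227 (4.43%), a higher share than at divergent gaps. An intron inside the 5′ UTR was annotated in 84 genes at divergent gaps (3.98%), 47 at tandem gaps (2.41%) and 3.32% of all coding genes.

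The longest 5′ UTR at a divergent gap was that of mbx2, a MADS-box gene, at 4059 bases, across 2110 bases from the ribosomal protein gene rps1801 with a 5′ UTR of 21 bases. SPAC1071.13 had 3338 bases, and its partner pma1 1497 bases. The mitochondrial ribosomal protein gene mrpl24 had 2534 bases across the gap of 146 bases from cdc18. wtf11 had 2492 bases and mpc2 2390 bases. The partners' 5′ UTRs measured 158 bases for cdc18, 775 bases for SPCC1281.06c beside wtf11 and 385 bases for SPAC24B11.08c beside mpc2. These genes were picked for their long 5′ UTRs, so a shorter partner was likely.

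Compared with RefSeq, the deposited annotation had longer 5′ UTRs and shorter gaps at most divergent pairs. Of the 1056 divergent gaps, 1020 (96.6%) were divergent neighbours in RefSeq too, and 1008 of these were within the limit. The median gap of the 1020 was 666.5 bases in the deposited annotation and 845.5 bases in RefSeq, with a median difference per gap of -92.5 bases (quartiles -235 and -32.5 bases). The gap was shorter in the deposited annotation in 890 pairs, longer in 117 and equal in 13. The median 5′ UTR of these genes was 163 bases in the deposited annotation and 87.5 bases in RefSeq. Of 289 matched pairs with no gap in the deposited annotation, 177 had a gap of 1 base or more in RefSeq, the histone pairs hhf2/hht2 and hht3/hhf3 among them. Tandem gaps moved less, by a median of -33 bases.

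Non-coding RNA genes lay wholly inside 134 divergent gaps (12.7%, interval 10.8% to 14.8%), against 96 tandem gaps (4.91%, 4.04% to 5.96%). The divergent gaps held 158 such genes, or 0.192 per kb of gap, against 115 genes, or 0.118 per kb, in tandem gaps. The share depended on the annotation and the limit: it was 35.1% of divergent and 16.0% of tandem gaps in RefSeq, and 3.74% and 2.01% with an upper limit of 1000 bases, in the same order. The share on chromosome I was 13.4% of divergent gaps and 4.68% of tandem gaps. IIc had 54 of 414 divergent gaps with such a gene and 33 of 696 tandem gaps, and chromosome III 18 of 180 divergent and 21 of 361 tandem gaps. Longer gaps held such a gene more often in both orientations, without a test. No gap of up to 200 bases held one. The share was higher for tandem gaps of 201 to 300 bases, at 0.69% against 0% of divergent gaps. It was also higher for tandem gaps of 301 to 500 bases, at 1.63% against 0.75%. Among gaps of 501 to 1000 bases it was 9.03% for divergent (interval 6.24% to 12.9%) and 7.24% for tandem gaps (4.99% to 10.4%). Among gaps of 1001 to 2000 bases it was 28.8% (23.7% to 34.4%) and 18.6% (13.8% to 24.6%), and among those of 2001 to 3000 bases 46.0% (34.3% to 58.2%) and 39.7% (28.5% to 52.0%). For gaps of 1001 to 2000 bases, whose medians were 1325 bases (divergent) and 1321 bases (tandem), the difference was 10.2 points with an interval of 2.35 to 17.6. For those of 501 to 1000 bases it was 1.79 points (interval -2.43 to 6.26) and for those of 2001 to 3000 bases 6.35 points (-10.7 to 22.9), and both intervals include 0. These differences within classes were computed after the values had been seen. Counting RNA genes that overlapped a gap by 1 base or more gave 31.3% of divergent and 26.8% of tandem gaps, but per kb of gap the order was the reverse, at 0.543 such genes in divergent and 0.638 in tandem gaps.

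**Figure D4:**
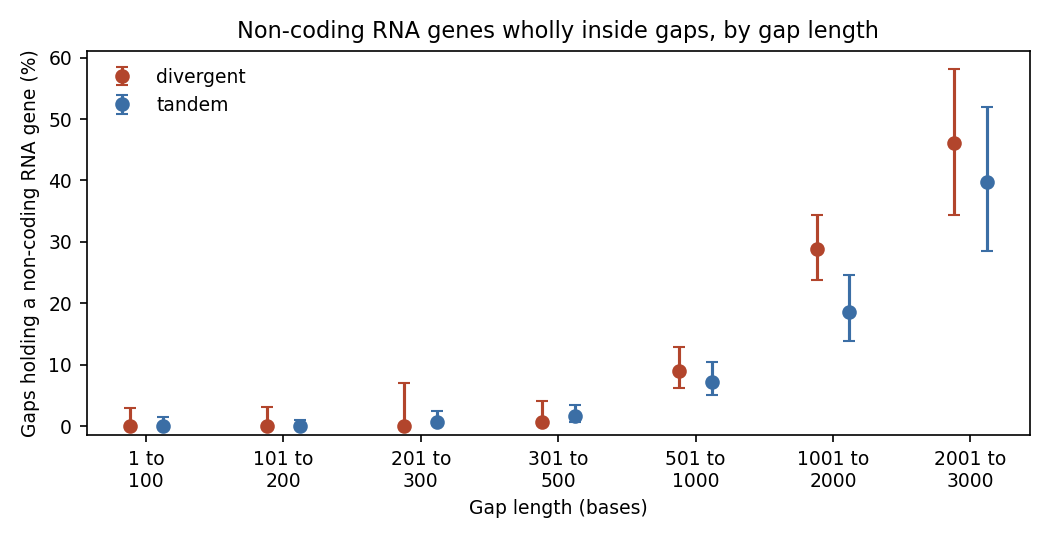
Percentage of divergent and tandem gaps that wholly contain a non-coding RNA gene, by gap length, with 95% Wilson intervals (bars). Both orientations rise with length, to 46.0% for divergent and 39.7% for tandem gaps of 2001 to 3000 bases.

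The non-coding RNA genes inside divergent gaps had a median length of 548.5 bases (quartiles 374 and 807 bases). As annotated, each reads toward one of the flanking genes and away from the other. Their starts lay at a median of 287 bases from the start of the coding gene behind them, which is read in the opposite direction, and their ends a median of 470 bases before the coding gene ahead. Both distances rest on the annotated strand, which was forward for 113 of the 158 genes and was not checked against reads. Most gaps with such a gene held 1 (112 gaps), 20 held 2 and 2 held 3. Those with 3 were nak1/rga5, where nak1 encodes a kinase of cell polarity and the gap of 2063 bases held SPNCRNA.1519, prl8 and prl9, and SPBC1683.03c/SPBC1683.04, of 1884 bases. The longest gaps with 2 were those of Tf2-8/pyp2 (2653 bases), cnt5/tif213 (2579 bases) and kei1/dap1 (2433 bases). Among the RNA genes with a name of their own were mrp1, between SPAC10F6.14c and SPAC10F6.15, and meu11, in the 2248 bases between sce3 and SPBC18H10.05; both were chosen after their values were seen.

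tRNA genes lay inside 37 divergent gaps (3.50%, interval 2.55% to 4.79%), against 45 tandem gaps (2.30%, 1.73% to 3.07%). The divergent gaps held 38 of the 171 nuclear tRNA genes (22.2%). Per kb of gap there were 0.0461 tRNA genes in divergent and 0.0513 in tandem gaps, so the order per length was the reverse of the order per gap. The divergent gaps with a tRNA gene measured 297 to 2485 bases, with a median of 1443 bases, and 8 of them also held a non-coding RNA gene. The longest were those of SPBC354.09c/def1 (2485 bases, a glycine tRNA gene), SPBC3H7.04/SPBC3H7.03c (2159 bases, proline), snd1/mrpl37 (2063 bases, serine), cns1/osm1 (1993 bases, tryptophan) and ctp1/naa15 (1901 bases, threonine). SPBC21C3.10c/ubx4 was the gap with 2 tRNA genes, for lysine and tyrosine, in 1887 bases. Next came SPAC1805.16c/crm1, the nuclear export receptor gene, with a leucine tRNA gene in 1759 bases, SPCC1393.09c/ctr4 with isoleucine in 1706 bases, the pht1/shy1 gap, and xlf1/SPCC24B10.15 with arginine in 1663 bases. A further 10 divergent gaps held an rRNA gene, 5 a small nucleolar RNA gene and 2 a small nuclear RNA gene. With pseudogenes counted too, genes of these types lay inside 17 divergent gaps (1.61%) and 35 tandem gaps (1.79%). Per kb of gap there were 0.0206 in divergent and 0.0359 in tandem gaps.

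Base composition was read on the RefSeq genome at RefSeq transcript starts, for the genes of the deposited divergent and tandem gaps. G and C made up 33.2% ± 3.90 of the 300 bases around starts at divergent gaps (SD, n = 2103 genes) and 32.6% ± 3.80 at tandem gaps (SD, n = 1948). The difference of the means was 0.68 points (95% normal interval 0.44 to 0.91), while single genes of both sets overlapped widely. All 5111 RefSeq coding genes had a mean of 33.1%, nearer to the divergent than to the tandem value. In 40-base bins along the 600 bases before the start, the content was lowest about 100 bases before it, at 30.3% at divergent and 29.1% at tandem gaps, and higher just before the start, at 36.8% and 36.9%. In the farthest bin, up to 600 bases before the start, it was 32.6% at divergent and 34.2% at tandem gaps, where the window often lies in the neighbouring gene. When a divergent gap is shorter than the windows, both genes of the pair share bases.

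**Figure D5:**
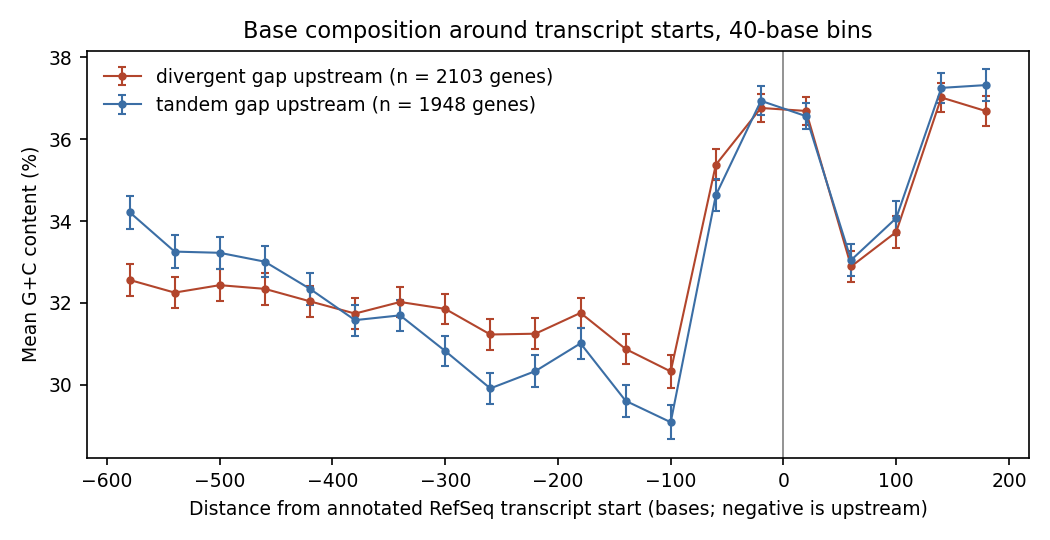
Mean G+C content (%) in 40-base bins against distance from the annotated RefSeq transcript start, for genes at divergent gaps (n = 2103) and tandem gaps (n = 1948), with 95% normal intervals (bars). Both have a low point of 30.3% and 29.1% about 100 bases upstream and rise to 36.8% and 36.9% at the start.

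Other elements, searched as exact letters on both strands from 250 bases before to 50 bases after the RefSeq start, gave the following shares. TATAAA was present at 46.8% of starts at divergent gaps (interval 44.7% to 48.9%), against 50.5% at tandem gaps (48.3% to 52.7%) and 48.1% of the 5111 RefSeq coding genes. CCAAT was present at 41.4% and 41.1%, and GTAAACA, the FLEX element of forkhead factors, at 16.8% and 17.2%, with divergent gaps first. TGACGT, the core of the CRE element, was present at 6.47% and 5.65%, and ACGCGT, the MCB element of genes expressed at the start of S phase, at 3.85% and 3.34%. HomolE was present at 1.19% and 1.39%, and a HomolE match that follows an A also counts as AACCCT. Among the 5111 RefSeq coding genes CCAAT was at 42.2%, FLEX at 16.5%, CRE at 5.91%, MCB at 3.25% and HomolE at 1.25%. At the starts of ribosomal protein genes at divergent gaps TATAAA was present in 17 of 62 (27.4%) and HomolE in 15 (24.2%). For those downstream of tandem gaps the counts were 17 of 55 (30.9%) and 19 of 55 (34.5%). A match describes letters in these windows and is not evidence of binding. Across a short divergent gap a single site can be counted at both starts.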

How the data were processed

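The deposited gene annotation (build ASM294v2 with a modified chromosome II, per the headers of the deposited sequence list and the submitters' processing notes) gives the first and last base of each feature, as the authors deposited them, with no value of a sample. The sources used here do not give how the modified chromosome was made. deepTools 2.5.3, bedtools, SAMtools, Bowtie2 and BWA are listed, without roles, in the submitters' processing notes. The other 2 deposited files list sequence names and lengths and were not used.

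A gene spanned its exons. The 5′ UTR is the exonic bases before the first coding base. RNA genes counted when wholly inside a gap. Members, lists and motifs were chosen with earlier results of these data known.

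RefSeq (ASM294v3) was joined on the systematic identifiers, and 5103 of 5123 coding genes (99.6%) matched. Sequence was read only at RefSeq coordinates, from the RefSeq genome and not from a promoter table. No coordinates were converted. The site of 1 histone pair is not reported here. Pairs were named by fixed rules: gaps with both genes in 1 of 11 lists, those with a histone, Swr1 or CENP-A list gene, up to 4 shortest for other lists, and extremes. The names pus1 (proteasome list) and ssp1 (chaperone list) were left out after the values had been seen, since RefSeq gives these genes as a pseudouridine synthase and a protein kinase.

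The gap and motif searches were tested on simulated data. Software was matplotlib 3.10.9, scipy 1.17.1 and numpy 2.4.6 under Python 3.11.15. Column totals and depth could not be given, since no library's values were at hand.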

Additional observations from a re-analysis of the deposited data

How the results depend on the processing

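No paired analysis was possible because the files hold no value of any sample. Leaving out gaps that another coding gene reached into, and taking only gaps over 1000 and up to 2000 bases, were alternatives added after seeing the data. The differences in median gap length and in 5′ UTR length, divergent minus tandem, stayed above 0 in every alternative run. Of 148 alternative values, 109 stayed within the interval of the reported value or within 1.5 times a count.

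With an upper limit of 1000 bases the divergent median fell to 400 bases, the difference from tandem gaps to 142.5 bases, the start codon distance to 869.5 bases, the share with a non-coding RNA gene to 3.74%, its difference to 1.73 percentage points and the share with a tRNA gene to 1.25%. With no upper limit the share with a non-coding RNA gene was 15.2%. Dropping every gap touched by any other gene, coding or not, left 661 gaps, a median of 463 bases, a difference of 208 bases and a start codon distance of 949 bases, with the shares and their difference at 0 by construction. In RefSeq the divergent median was 752 bases, the difference 416 bases, the start codon distance 1014 bases, the 5′ UTR median 90 bases, its difference 23 bases, the share with a non-coding RNA gene 35.1% and its difference 19.1 points. The cause of the higher share in RefSeq was not tested. The 5′ UTR median was 181.5 bases where both were annotated. Overlap by 1 base gave 31.3% with a non-coding RNA gene and a difference of 4.53 points, and gaps over 1000 and up to 2000 bases a difference of 10.2 points. Without chromosome I 594 gaps remained, and without IIc 642, by construction.

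With only the 250 bases before the start, AACCCT was at 8.65%, TATAAA at 43.5% and CCAAT at 34.4% of starts. With 100 bases they were at 4.56%, 19.1% and 14.5%, MCB at 1.85%, CRE at 3.38% and FLEX at 6.37%. Median GC was 32.4% and 35.0% in these windows and 33.2% without IIc.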

Other observations

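The non-coding RNA genes inside the gaps were unevenly spread over the strands. Inside divergent gaps 113 of 158 were on the forward strand (71.5%, 95% Wilson interval 64.0% to 78.0%). The share was 69.4% for chromosome I, 71.9% for IIc and 77.3% for chromosome III. Inside tandem gaps 87 of 115 were on the forward strand (75.7%), against 57.2% of all 1536 nuclear non-coding RNA genes and 49.6% of the coding genes. Of the genes with names beginning prl, 6 of 13 were on the forward strand, and of the others inside divergent gaps 107 of 145 (73.8%). RefSeq kept the strand of all 141 that could be matched. The pattern was noticed in these data, and its cause was not tested.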
